A study of Rattus norvegicus with 9 samples.

Results

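The genes described here encode the proteins of the cytosolic ribosome in rat cardiac myocytes. They were chosen by name, as rows whose symbol starts with Rpl or Rps followed by a digit or is Rplp0, Rplp1, Rplp2 or Rpsa, with a level of 1 FPKM or more (the fragments of a gene scaled to its length and to the size of the library), in at least 3 libraries. The letters match 95 rows, of which 9 are Rps6k kinases and 2 carry pseudogene names, so that 84 remain. Rpl3l, a muscle form of Rpl3 listed at 0 to 0.09 FPKM, is below the filter, which leaves 83 genes of the 14636 rows, 34 with an Rps name and 49 with an Rpl name. Rps19bp1, a binding partner of a ribosomal protein, matches by its letters only, and without it there are 82. The choice used names and a minimum level and no comparison between groups.

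A ribosome has a small (40S) subunit that reads the mRNA and a large (60S) subunit that joins amino acids, and the Rps and Rpl genes encode their proteins. The mRNAs of these proteins are among the most abundant of a cell and most begin with a run of pyrimidines, the 5′ terminal oligopyrimidine (TOP) motif, through which mTOR and LARP1 control their translation and stability. Ribosome production is known to increase when cardiac myocytes grow.

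The cells were primary cardiac myocytes of 2-day-old Sprague Dawley rats, freed with a neonatal heart dissociation kit, purified on Percoll and kept in medium with 15% serum. After 16 h they received siRNA, and RNA was taken 48 h later for poly-A, low-input BGISEQ-500 sequencing. The 3 groups of 3 libraries were universal negative control siRNA, a combination against Llgl1 plus Llgl2, which encode basolateral polarity proteins (here Llgl1/2 siRNA), and siRNA against Yap, the coactivator restrained by the Hippo pathway. Each target was given 2 siRNAs at 25 nM each. The labels give no concentration for the control, and a combination of 2 targets may mean a larger dose, so the dose of siRNA and its target cannot be told apart. The labels do not say that the libraries of a group came from separate cultures, so the p-values rest on a spread between libraries that may be only technical.

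The FPKM sum of a library was 572884 to 620119 over all rows, and 10449 to 10565 genes reached 1 FPKM. Read totals are not part of the values, so the depth behind each value is unknown. Llgl1 fell to 0.389 and Llgl2 to 0.525 of the control mean after Llgl1/2 siRNA, and Yap1 fell to 0.0911 after Yap siRNA (limma adjusted p of 3.9e-06, 0.00025 and 1.7e-10). After Yap siRNA, Llgl1 and Llgl2 also fell, to 0.728 and 0.705 of the control mean without overlap (limma adjusted p = 0.0064 and 0.0086), so the Yap group is not one with control levels of both. All 10 cardiomyocyte markers were detected, with a summed level of 23450 to 27157 FPKM in the controls, 26749 to 29741 after Llgl1/2 siRNA and 30850 to 33688 after Yap siRNA. The 8 endothelial markers summed to 505 to 600, 252 to 264 and 362 to 420 FPKM in the same order, the 6 smooth muscle and pericyte markers to 656 to 750, 514 to 687 and 300 to 382, and the 8 fibroblast markers to 319 to 459, 288 to 364 and 359 to 446. The 8 leukocyte markers summed to 119 to 152, 93.4 to 119 and 114 to 157 FPKM and the erythroid markers to 150 to 182, 118 to 182 and 86.6 to 146. No marker of these lists was at 0 in every library. A sum follows its most abundant genes, and the markers of a list did not all move alike. After Llgl1/2 siRNA, 6 cardiomyocyte markers rose and 1 fell, 0 endothelial rose and 7 fell, and 2 smooth muscle rose and 1 fell. After Yap siRNA the counts were 8 and 2, 1 and 4, and 3 and 3 in the same order (limma adjusted p under 0.05). Of all tested genes, 22.1% rose and 18.1% fell in the first comparison, and 20.5% and 27.5% in the second. The summed range thus lay apart from the controls for the endothelial list after each siRNA. For the cardiomyocyte, smooth muscle and erythroid lists it did so after Yap siRNA only, and the other ranges overlapped the controls. The part of marker levels in the results below was not tested. In bulk RNA, fewer cells of a type and less RNA per cell cannot be told apart.

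Promoter sequence from RefSeq (rat GRCr8) was found for 65 of the 83 genes. It is shown for 3 of the genes that rose most steeply after Yap siRNA (Rpl38, Rpl35a, Rpl36), for a 40S gene that moved in opposite directions after the 2 knockdowns (Rps7), for the gene with the steepest fall after Llgl1/2 siRNA (Rps4y2), and for 2 genes that fell after Yap siRNA (Rplp0, Rps16). Each line runs 5′ to 3′ from 50 bases before to 20 bases after the annotated start, and capitals mark the longest run of C or T that touches the 10 bases on either side of the start.
Rpl38: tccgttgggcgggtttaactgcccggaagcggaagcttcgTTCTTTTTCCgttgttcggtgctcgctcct
Rpl35a: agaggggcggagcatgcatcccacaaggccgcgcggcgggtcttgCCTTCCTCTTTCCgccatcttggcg
Rpl36: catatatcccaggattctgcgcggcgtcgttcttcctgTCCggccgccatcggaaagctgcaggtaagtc
Rps7: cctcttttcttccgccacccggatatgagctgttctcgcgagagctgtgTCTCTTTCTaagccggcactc
Rps4y2: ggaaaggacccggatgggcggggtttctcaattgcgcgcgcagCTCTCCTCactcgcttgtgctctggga
Rplp0: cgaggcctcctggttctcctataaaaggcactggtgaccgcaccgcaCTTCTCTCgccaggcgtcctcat
Rps16: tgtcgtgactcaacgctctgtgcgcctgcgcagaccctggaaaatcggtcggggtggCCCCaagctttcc
On GRCr8 these are chr10:100200385-100200454 (plus strand), chr11:81235002-81235071 (minus), chr9:1533730-1533799 (plus), chr6:50999426-50999495 (minus), chr4:183000863-183000932 (plus), chr12:46718371-46718440 (minus) and chr1:92770608-92770677 (plus).

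The pyrimidine run at the start was the most common feature of these promoters. A run of at least 7 C or T touching the 10 bases on either side of the start was present in 72.3% of the 65 promoters, against 19.1% of the 27457 promoters in the table. In the whole 300-base window, on both strands, CTTTCC was found in 50.8% against 26.4%, CCGGAAG in 30.8% against 9.22%, AAGATGG in 13.8% against 7.30% and TATAAA in 12.3% against 14.3%, and no gene had overlapping matches of different motifs. CCGGAAG was present in 14 of the 32 promoters of genes that rose after Yap siRNA, in 0 of the 6 of genes that fell and in 6 of the 27 of genes that did not pass the test. The Rpl38 line holds it before the capitals. A run of 7 was present in 23 of 32, 4 of 6 and 20 of 27 promoters, so the run was about as common in genes that rose, fell or did not pass. These matches describe the letters of the windows and are no test of a factor's binding.

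The ribosomal protein genes were abundant in every library. Their summed level was 78376, 73852 and 72539 FPKM in control libraries 1 to 3, 75838, 66556 and 66779 FPKM after Llgl1/2 siRNA, and 93675, 90501 and 81439 FPKM after Yap siRNA. The 3 Yap siRNA libraries were above every control library, and the Llgl1/2 range overlapped that of the controls because of its library 1. As a share of the FPKM sum of the library, they held 12.9% ± 0.42 in the controls, 11.98% ± 0.62 after Llgl1/2 siRNA and 14.5% ± 0.77 after Yap siRNA (SD, n = 3). The mean summed level was 0.931 of the control mean after Llgl1/2 siRNA and 1.18 of it after Yap siRNA. Under median-ratio scaling, which sets the median gene of each library to a common level, the ratios were 0.912 and 1.23. With the same FPKM sum in every library they were 0.926 and 1.13, and with the same sum over all other genes 0.917 and 1.15. FPKM is a relative measure, so these are shares of the sequenced mRNA and not amounts per cell.

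**Figure D1:**
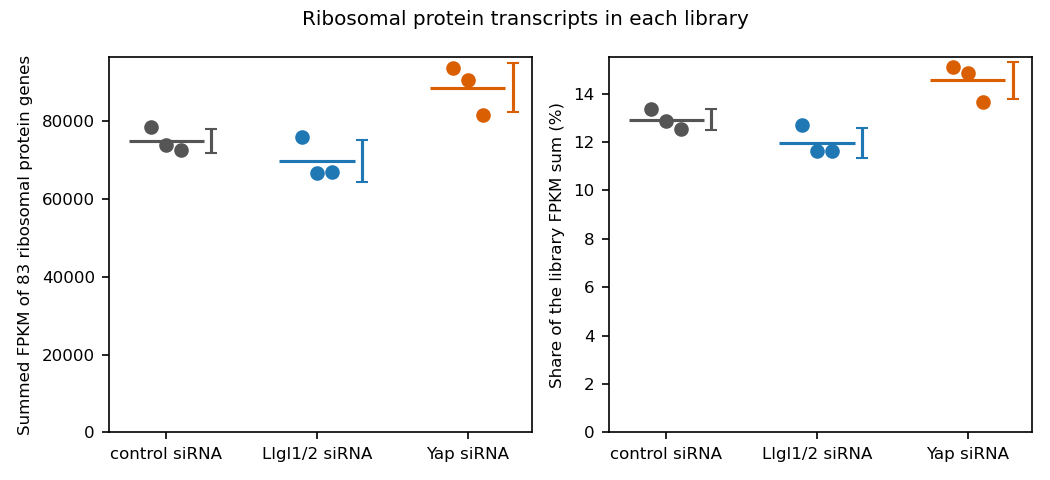
Summed FPKM of the 83 ribosomal protein genes (left) and their share of the FPKM sum of the library in percent (right), with a point per library, a line at the group mean and a bar of ± 1 SD (n = 3). The Yap siRNA libraries lie between 81439 and 93675 FPKM, above the highest control library at 78376.

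Within the controls the genes differed widely in level on the per-length FPKM scale. The highest mean levels were those of Rpl23a, a docking site at the exit tunnel, at 1992 ± 88.5 FPKM, Rplp1, an acidic protein of the stalk, at 1886 ± 185, Rps6, the substrate of the S6 kinases, at 1801 ± 153, Rpl21 at 1760 ± 82.2 and Rpl26 at 1705 ± 68.9 (SD, n = 3). The lowest were Rpl39l at 1.24 ± 0.885 FPKM, Rps4y2 at 21.9 ± 2.85, Rps19bp1 at 38.1 ± 2.75, Rpl22l1 at 160 ± 29.1 and Rps27l at 178 ± 20.04, which are paralog forms apart from the binding partner. In all 9 libraries, 79 of the 83 genes were at 100 FPKM or more and 82 were at 1 FPKM or more, and the exception to the latter is Rpl39l. The median coefficient of variation of a gene within its group was 5.58% in the controls, 7.90% after Llgl1/2 siRNA and 9.31% after Yap siRNA. Many genes shared their highest library within a group. Control library 1 was the highest of its group for 73 of 83 genes, Llgl1/2 library 1 for 78 and Yap library 1 for 51, and Yap library 3 was the lowest for 57. Library 1 also had the largest FPKM sum over all rows in each group, at 585883, 597481 and 620119. Such counts were not made for all tested genes, so whether this is particular to the ribosomal protein genes was not tested.

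After Llgl1/2 siRNA, most ribosomal protein genes did not pass the test, and the calls were all downward. None of the 83 rose and 14 fell, with limma on log2(FPKM + 1) at a Benjamini-Hochberg adjusted p under 0.05, where 22.1% of the 10789 tested genes rose and 18.1% fell, and 69 did not pass. The share of ribosomal protein genes that fell, 16.9%, was thus near that of all genes, and the absence of calls in the other direction is where they differed in count. The median log2 change was -0.09 against 0.03 for all tested genes, 72 of 83 changes were negative, and they ran from -0.72 to 0.28. Groups that did not overlap were found for 0 genes upward and 19 downward, where 30.1% and 24.0% of all genes did. Of the 34 Rps genes 4 fell, and of the 49 Rpl genes 10 fell.

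Among the 40S genes, Rps4y2, a paralog of Rps4x, was at 25.2, 19.9 and 20.7 FPKM in the controls and at 13.8, 10.8 and 14.2 after Llgl1/2 siRNA. The groups were apart, and the gene fell by 0.72 ± 0.11 on the log2 scale (limma, SE; adjusted p = 0.00021). Its abundant relative Rps4x was at 936, 870 and 834 FPKM against 868, 833 and 804, where the ranges overlap and the log2 change was -0.07 ± 0.08 (limma adjusted p = 0.48). Rps7, which also binds the p53 regulator MDM2, was at 1299, 1251 and 1052 FPKM against 958, 814 and 777. Every Llgl1/2 library was below every control, and Rps7 fell by 0.50 ± 0.10 (limma adjusted p = 0.0019). Rps9, an early-binding protein of 40S assembly, was at 357, 334 and 313 FPKM against 294, 258 and 257, again without overlap, and fell by 0.31 ± 0.08 (limma adjusted p = 0.0080). The table holds a second row, LOC103689992, with the values of Rps9 in every library, so both rows are 1 measurement. The fourth 40S gene that fell was Rps12, by 0.28 ± 0.10 (limma adjusted p = 0.036), and Rps6 missed the threshold at -0.26 ± 0.10 (limma adjusted p = 0.054).

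Among the 60S genes, Rpl17, which lies around the exit tunnel, was at 1102, 1045 and 1073 FPKM in the controls and at 795, 695 and 718 after Llgl1/2 siRNA. The groups were far apart and the gene fell by 0.55 ± 0.08 (limma adjusted p = 0.00020). Rpl22l1, the paralog of Rpl22, was at 187, 163 and 129 FPKM against 111, 117 and 119, and fell by 0.45 ± 0.13 (limma adjusted p = 0.014). Its parent Rpl22 was at 488, 394 and 440 FPKM against 431, 423 and 415, which overlap, with a log2 change of -0.05 ± 0.09 (limma adjusted p = 0.65). Whether the paralog and the parent differ in their response was not tested. Rpl32 was at 1609, 1468 and 1392 FPKM against 1282, 1055 and 1111, without overlap, and fell by 0.38 ± 0.09 (limma adjusted p = 0.0038). Rpl27a was at 648, 605 and 582 FPKM against 503, 470 and 486, and Rpl4, which lines the exit tunnel, was at 1019, 958 and 904 against 807, 727 and 765. Neither gene had overlapping groups, and they fell by 0.33 ± 0.07 and 0.32 ± 0.08 (limma adjusted p = 0.0030 and 0.0063). The remaining 5 that fell were Rpl10a, Rpl12, Rpl15, Rpl3 and Rpl6, by 0.22 to 0.29. Of the 14 genes, Rps4y2, Rpl17, Rps7, Rpl32, Rpl27a, Rpl4 and Rps9 passed whichever library was left out, and all 14 passed under each of 4 other scalings. Without control library 1 the count was 7, without control library 2 or Llgl1/2 library 3 it was 8, without Llgl1/2 library 2 it was 9, and without Llgl1/2 library 1, the highest of its group, it was 21.

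After Yap siRNA, the ribosomal protein genes moved in both directions, more of them up. Of the 83 genes, 39 rose and 9 fell, where 20.5% of all tested genes rose and 27.5% fell, and 35 did not pass. The median log2 change was 0.20 against -0.06 for all tested genes, and the changes ran from -2.36 to 1.24. The lower end is Rpl37a, a row of uncertain value, and the next steepest fall was that of Rps4y2, at -0.41. The SD over genes, with Rpl37a included, was 0.45, near the 0.48 of all tested genes. After Llgl1/2 siRNA it was 0.15, below the 0.41 of all tested genes. Groups did not overlap for 40 genes upward and 11 downward, where 23.3% and 31.6% of all genes did. Among the Rps genes 12 of 34 rose and 4 fell, with a median of 0.09, and among the Rpl genes 27 of 49 rose and 5 fell, with a median of 0.26. Changes of at least 0.5 were made by 17 genes that rose and by 1 that fell, which is Rpl37a. Among all 10789 tested genes, 1090 that rose and 1274 that fell made such changes. Of the calls, 33 of the 39 higher and 8 of the 9 lower passed whichever library was left out. The split depended on the scaling: under quantile normalization 28 genes rose and 17 fell, with a median of 0.02.

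**Figure D2:**
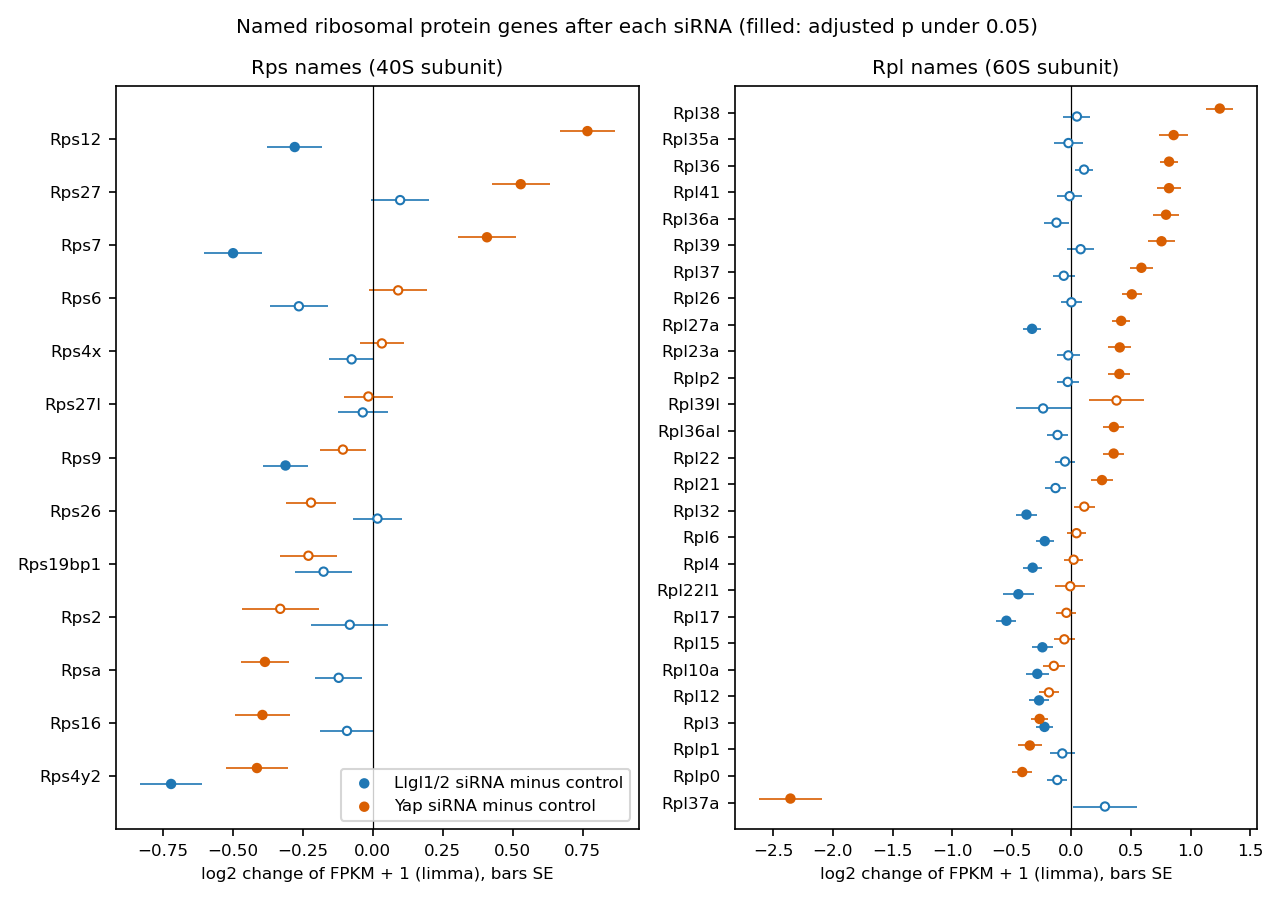
Log2 change of FPKM + 1 against the control for the 40 ribosomal protein genes named in the text, Rps names on the left and Rpl names on the right, ordered by the change after Yap siRNA, with bars of 1 SE from limma and filled points for an adjusted p under 0.05. Among these genes 17 filled points lie to the right of 0 and 7 to the left after Yap siRNA, and all 14 filled points after Llgl1/2 siRNA lie to the left.

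The steepest rise was in a 60S gene. Rpl38, which in mouse is needed for the translation of particular Hox mRNAs, was at 381, 393 and 468 FPKM in the controls, at 467, 399 and 414 after Llgl1/2 siRNA and at 1014, 1125 and 821 after Yap siRNA. The Yap libraries were all well above the other 6, and Rpl38 rose 2.38-fold in mean FPKM, by 1.24 ± 0.11 on the log2 scale (limma adjusted p = 1.4e-06). Rpl35a, a gene mutated in some patients with Diamond-Blackfan anaemia, was at 743, 743 and 798 FPKM in the controls and at 1395, 1670 and 1127 after Yap siRNA. It rose 1.84-fold (log2 change 0.86 ± 0.12, limma adjusted p = 7.2e-05), with Yap library 3 the lowest of its group. Rpl36 was at 698, 667 and 643 FPKM against 1200, 1235 and 1111, a close set of Yap libraries, and rose 1.77-fold (0.82 ± 0.07, limma adjusted p = 1.3e-06).

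Rpl41, a very short peptide of the ribosome, was at 1521, 1435 and 1683 FPKM in the controls and at 3028, 2577 and 2585 after Yap siRNA, when it had the highest mean of all 83 genes. It rose by 0.82 ± 0.10 on the log2 scale (limma adjusted p = 2.2e-05). Rpl36a was at 523, 472 and 436 FPKM against 866, 935 and 694, and Rpl39, which lies in the exit tunnel, was at 517, 496 and 624 against 929, 1006 and 827. Both rose without overlap, by 0.79 ± 0.11 and 0.76 ± 0.11 (limma adjusted p = 3.7e-05 and 8.3e-05). The paralogs Rpl36al and Rpl39l were less steep in value: Rpl36al was at 467, 451 and 430 FPKM against 597, 637 and 501 and rose by 0.36 ± 0.09 (limma adjusted p = 0.0044). Rpl39l, at 0.44, 2.19 and 1.09 FPKM against 1.36, 1.81 and 2.18, overlapped between groups and did not pass (limma adjusted p = 0.19). No difference between a paralog and its parent was tested.

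Among the 40S genes that rose, Rps12 was at 858, 843 and 790 FPKM in the controls, 731, 670 and 654 after Llgl1/2 siRNA and 1555, 1531 and 1186 after Yap siRNA. The 3 groups did not overlap, with Yap siRNA the highest and Llgl1/2 siRNA the lowest, and after Yap siRNA the gene rose by 0.77 ± 0.10 (limma adjusted p = 2.7e-05). Rps7 was at 1749, 1593 and 1437 FPKM after Yap siRNA and rose by 0.41 ± 0.10 (limma adjusted p = 0.0053), so that it passed the test upward in this comparison and downward after Llgl1/2 siRNA. Rps12 and Rpl27a, which rose by 0.42 ± 0.07 (limma adjusted p = 0.00041), did the same. Rps27 was at 1374, 1336 and 1642 FPKM against 2193, 2261 and 1828, without overlap, and rose by 0.53 ± 0.10 (limma adjusted p = 0.00086). Its paralog Rps27l, a p53 target in human cells, was at 199, 176 and 159 FPKM against 190, 168 and 168, where the ranges overlap and the log2 change was -0.02 ± 0.09 (limma adjusted p = 0.90).

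The genes that fell after Yap siRNA included members of the ribosomal stalk, which recruits the GTPases of translation. Rplp0, the base of the stalk, was at 1318, 1251 and 1171 FPKM in the controls, 1178, 1109 and 1154 after Llgl1/2 siRNA and 1012, 826 and 979 after Yap siRNA. The Yap libraries were the lowest, and Rplp0 fell by 0.41 ± 0.09 (limma adjusted p = 0.0013). Rplp1, which pairs with Rplp2 on that base, was at 2025, 1956 and 1676 FPKM in the controls and 1595, 1292 and 1559 after Yap siRNA, and fell by 0.35 ± 0.10 (limma adjusted p = 0.012). This call was lost without control library 1 or Yap library 2 (limma adjusted p = 0.059 and 0.055). Rplp2 went the other way, from 915, 884 and 807 FPKM to 1242, 1079 and 1125, and rose by 0.40 ± 0.09 (limma adjusted p = 0.0025), so the 3 stalk genes did not move together.

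The 40S genes that fell included Rps4y2 (by 0.41 ± 0.11, limma adjusted p = 0.0071), Rps16 and Rpsa. Rps16, whose tail reaches the tRNA in the P site, was at 882, 786 and 793 FPKM against 668, 528 and 686 after Yap siRNA. The Yap libraries were below all controls with library 2 the lowest, and Rps16 fell by 0.39 ± 0.10 (limma adjusted p = 0.0044). Rpsa, also known as the laminin receptor, was at 1403, 1364 and 1270 FPKM against 1105, 932 and 1060, and fell by 0.38 ± 0.09 (limma adjusted p = 0.0021). Rps2 and Rps26 had groups that did not overlap and log2 changes of -0.33 and -0.22 but missed the threshold (limma adjusted p = 0.064 and 0.053).

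On the 60S side, Rpl3, a protein near the peptidyl transferase centre, was at 872, 853 and 815 FPKM in the controls, 761, 713 and 698 after Llgl1/2 siRNA and 747, 694 and 671 after Yap siRNA. It fell after both, by 0.23 ± 0.07 and 0.27 ± 0.07 (limma adjusted p = 0.022 and 0.0073), and both comparisons use the same controls. Rps4y2, at 16.1, 16.2 and 16.1 FPKM after Yap siRNA, is the other gene that passed downward in both. Among the 9 genes that fell, Yap library 2 was the lowest of its group in 7, and among the 39 that rose it was the highest in 22. The 9 falls passed under all 4 other scalings, and 28 of the 39 rises did.

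**Figure D3:**
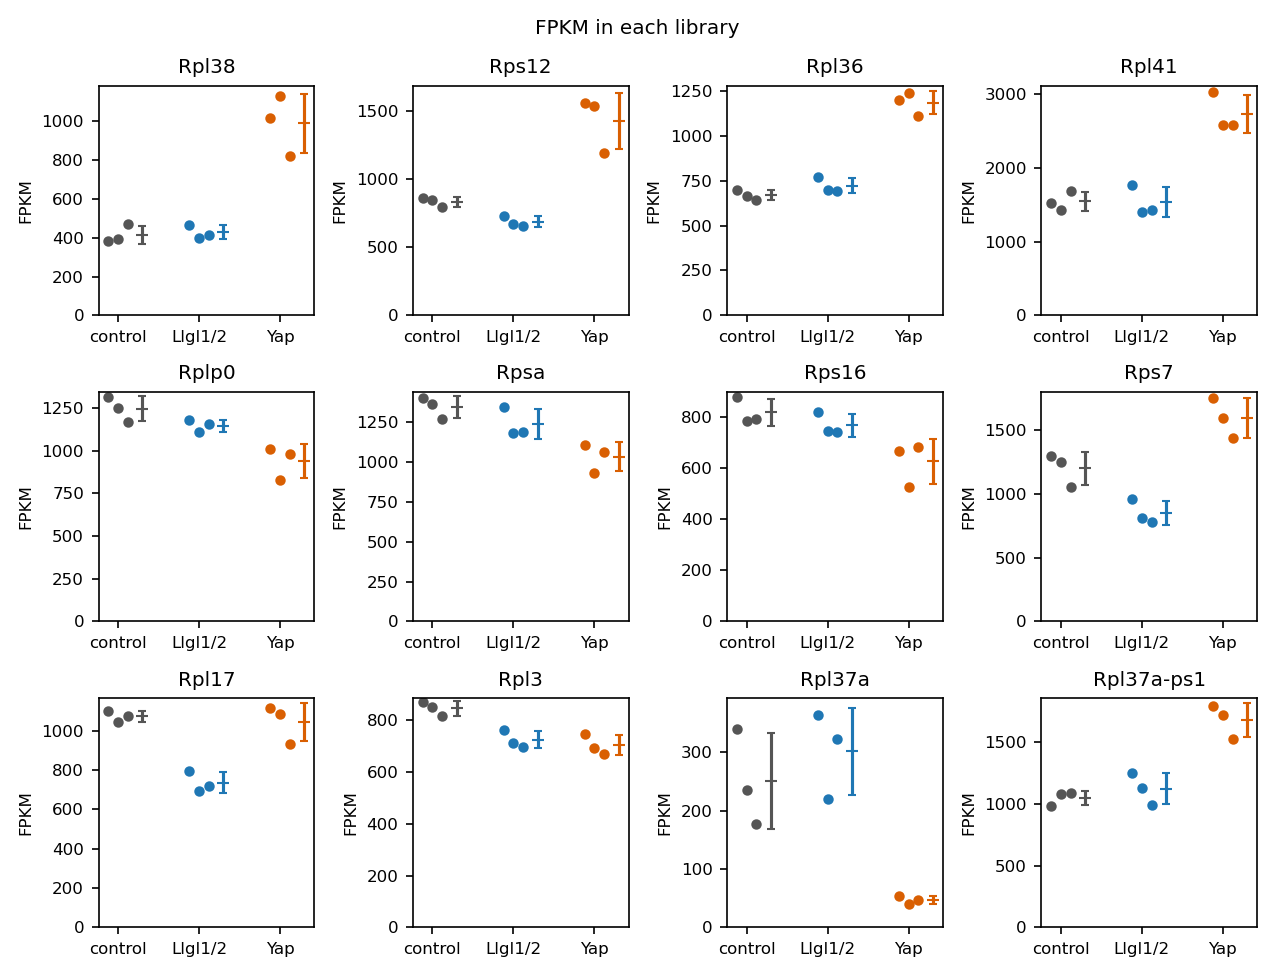
FPKM in each library for 11 ribosomal protein genes and for the row named Rpl37a-ps1, with a point per library and, beside them, the group mean with a bar of ± 1 SD (n = 3), each axis starting at 0. Rpl38, Rps12, Rpl36 and Rpl41 are highest after Yap siRNA, Rplp0, Rpsa and Rps16 are lowest there, Rps7 and Rpl17 are lowest after Llgl1/2 siRNA, and Rpl37a and Rpl37a-ps1 go opposite ways.

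Rpl37a had the steepest fall of all after Yap siRNA, but its value is uncertain. The row named Rpl37a was at 340, 236 and 178 FPKM in the controls, 363, 219 and 323 after Llgl1/2 siRNA and 53.4, 39.96 and 47.2 after Yap siRNA, and fell by 2.36 ± 0.27 (limma adjusted p = 0.00022). The row named Rpl37a-ps1, which the choice of genes leaves out as a pseudogene name, was higher, at 987, 1084 and 1087 FPKM, 1248, 1131 and 995, and 1793, 1722 and 1527 in the same groups, and rose by 0.67 ± 0.09 after Yap siRNA (limma adjusted p = 5.3e-05). The GRCr8 gene table gives the ID of the second row the symbol Rpl37a and does not hold the ID of the first. Near-identical copies can share reads, and the authors' rule for such reads is not given in the sources used here. The 2 rows together summed to 1304 ± 34.2 FPKM in the controls, 1426 ± 161 after Llgl1/2 siRNA and 1727 ± 139 after Yap siRNA (SD, n = 3), so the sum was highest after Yap siRNA and the direction for this protein depends on which row is read.

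The same limit holds for other members, since many ribosomal protein genes have processed copies. RGD1359290, which the file annotates as an L17 protein and the GRCr8 table names Rpl17-ps16, was at 198, 210 and 224 FPKM in the controls, 146, 130 and 123 after Llgl1/2 siRNA and 345, 372 and 283 after Yap siRNA. It fell by 0.66 ± 0.10 in the first comparison, as Rpl17 did, and rose by 0.65 ± 0.10 in the second (limma adjusted p = 0.00018 and 0.00012), where Rpl17, at 1116, 1085 and 934 FPKM, had a log2 change of -0.04 ± 0.08 (limma adjusted p = 0.70). Of the 83 gene IDs, 81 were in the GRCr8 table and 78 had the same symbol there, and Rpl36al, Rpl37 and Rpl39l appear with the symbols Rpl36al1, Rpl37l1 and Rpl39l1.

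Compared with each other, the knockdowns differed in most of these genes. Between Llgl1/2 siRNA and Yap siRNA, 53 of the 83 were lower after Llgl1/2 siRNA, where 19.0% of all tested genes were, and 8 were higher, where 28.0% were (limma adjusted p under 0.05). The median log2 difference was -0.34 against 0.08 for all tested genes, with 52 genes lower and 8 higher without overlap (21.4% and 32.9% of all genes). The comparison uses no control library in its groups. The widest differences with Llgl1/2 siRNA lower were those of Rpl38 (-1.20 ± 0.11), Rps12 (-1.05 ± 0.10), Rpl36a (-0.92 ± 0.11), Rps7 (-0.91 ± 0.10) and Rpl35a (-0.88 ± 0.12), with limma adjusted p from 2.5e-06 to 6.8e-05. Rpl41 and Rpl27a were at -0.83 ± 0.10 and -0.75 ± 0.07. The count includes Rpl39l, which reached 1 FPKM in 2 control and 3 Yap libraries and in none of the Llgl1/2 libraries, so that it entered the test through the groups in which it was higher.

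The 8 genes that were higher after Llgl1/2 siRNA than after Yap siRNA included Rpl37a (2.64 ± 0.27), Rps16 (0.30 ± 0.10), Rplp0 (0.29 ± 0.09), Rplp1 (0.27 ± 0.10), Rpsa (0.26 ± 0.09) and Rps26 (0.24 ± 0.09). Yap library 2 was the lowest of its group in all 8. Without that library the count was 3, as it was without Llgl1/2 library 1 and under median-ratio scaling, and without control library 2 it was 5. Of the 53 lower genes, 42 passed whichever library was left out and 38 passed under all 4 other scalings.

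Median-ratio scaling left the directions of the medians as they were. Under it the median log2 change of the ribosomal protein genes was -0.12 after Llgl1/2 siRNA and 0.25 after Yap siRNA, and -0.43 between the knockdowns, with medians of all tested genes of 0.01, -0.02 and 0.01. The counts were 0 higher and 17 lower, 41 higher and 9 lower, and 3 higher and 59 lower. Across the deposited scale and the 4 other scalings, the sign of the log2 change was the same for 72, 63 and 67 of the 83 genes. The distance of the median gene from that of all genes was -0.12, 0.26 and -0.42 as deposited and -0.10, 0.05 and -0.18 under quantile normalization, which gives every library the same distribution of values.

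**Figure D4:**
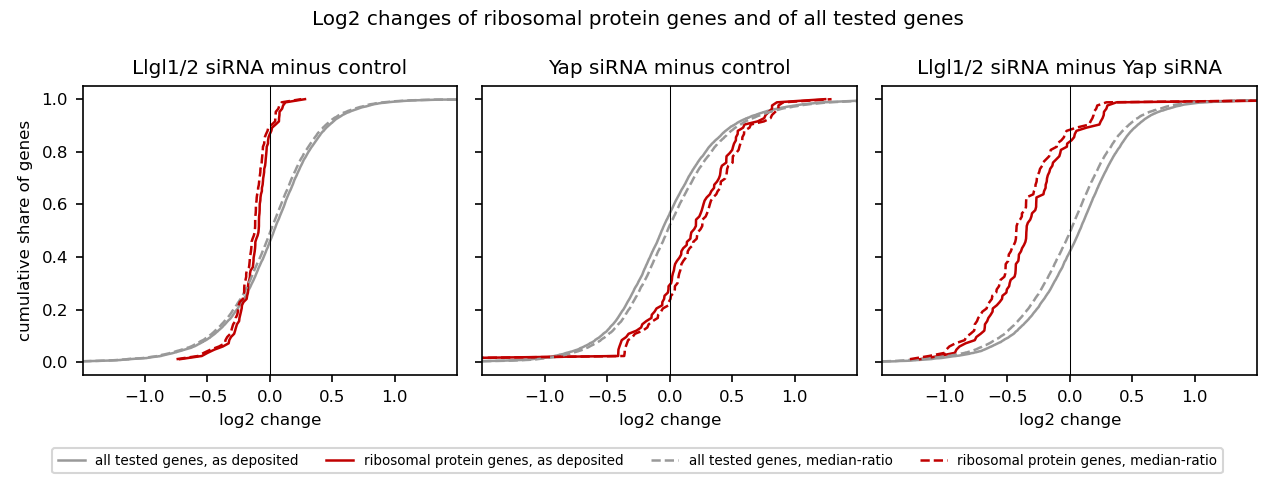
Cumulative share of genes by log2 change in the 3 comparisons, for the 83 ribosomal protein genes (red) and all 10789 tested genes (grey), with FPKM as deposited (solid) and after median-ratio scaling (dashed). The red curves lie left of the grey ones near 0 after Llgl1/2 siRNA (median -0.09), right of them after Yap siRNA (0.20) and left of them between the knockdowns (-0.34), and Rpl37a lies outside the axis in the last 2.

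Fau and Rack1 are ribosomal proteins whose names lie outside the choice. Fau, a fusion whose product includes the 40S protein S30, was at 584, 543 and 565 FPKM in the controls, 519, 473 and 465 after Llgl1/2 siRNA and 832, 826 and 711 after Yap siRNA. It fell by 0.22 ± 0.08 in the first comparison and rose by 0.48 ± 0.08 in the second (limma adjusted p = 0.044 and 0.00024), with no overlap in either. Rack1, a scaffold on the 40S subunit, fell by 0.44 ± 0.09 after Yap siRNA (limma adjusted p = 0.0016).

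For each list below, the background is the 22.1% of all tested genes that rose and 18.1% that fell after Llgl1/2 siRNA (median 0.03), and the 20.5% and 27.5% after Yap siRNA (median -0.06). The list of mitochondrial ribosomal proteins, encoded in the nucleus for the ribosome of the organelle, had medians of 0.11 after each siRNA over its 73 tested genes. Of these 17 rose and 3 fell after Llgl1/2 siRNA, and 27 rose and 9 fell after Yap siRNA, with Mrpl57 the steepest among the named (1.19 ± 0.11, limma adjusted p = 2.0e-06). After Llgl1/2 siRNA the cytosolic list thus had 0 genes that rose and the mitochondrial list 17, or 23.3%, near the share of all tested genes. The difference between lists was not tested. The mitochondrial list was made by name and includes Mrps36, which the GRCr8 table names Kgd4. Elongation and termination factors counted 2 rises and 4 falls of 12 after Llgl1/2 siRNA and 1 and 6 after Yap siRNA, with medians of -0.13 and -0.20. Eef1a1, the elongation factor that delivers tRNA and itself a TOP mRNA, fell by 0.32 ± 0.08 after each (limma adjusted p = 0.0047 and 0.0038), while Eef1a2, its muscle and neuron form, rose by 0.47 ± 0.08 and 0.62 ± 0.08 (limma adjusted p = 0.00029 and 1.8e-05). Initiation factors counted 1 rise and 11 falls of 36, and 6 and 14, with medians of -0.09 and -0.14. Eif4a1, the helicase of the cap complex, fell by 0.58 ± 0.08 and 0.67 ± 0.08 (limma adjusted p = 0.00010 and 1.8e-05).

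Other TOP mRNAs counted 0 rises and 4 falls of 18 after Llgl1/2 siRNA and 4 and 4 after Yap siRNA, with medians of -0.10 and 0.02, and this list shares its elongation factors, Npm1 and Nap1l1 with others. Gas5, a noncoding TOP transcript that hosts small nucleolar RNAs, was at 76.2, 75.7 and 75.2 FPKM in the controls, 87.1, 78.8 and 74.96 after Llgl1/2 siRNA and 134, 144 and 138 after Yap siRNA. Only the Yap libraries stood apart, and Gas5 rose by 0.86 ± 0.07 (limma adjusted p = 5.1e-07). Genes of the mTOR pathway and the MYC factors, of which 16 of the 20 listed were tested, counted 2 rises and 5 falls and 4 and 4, with medians of -0.04 and -0.10. Myc, a transcription factor that drives ribosome production, was at 38.7, 40.8 and 33.0 FPKM in the controls, 21.2, 23.1 and 22.6 after Llgl1/2 siRNA and 37.9, 33.7 and 32.5 after Yap siRNA. It fell after Llgl1/2 siRNA by 0.72 ± 0.09 (limma adjusted p = 4.2e-05) and overlapped the controls after Yap siRNA, with a log2 change of -0.11 ± 0.09 (limma adjusted p = 0.36). Mtor, the kinase, fell by 0.53 ± 0.09 after Yap siRNA (limma adjusted p = 0.00021).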

How the data were processed

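Poly-A RNA of 9 libraries was measured, 3 per siRNA group. The deposited values are FPKM per gene and library, made by the authors. Bowtie2, HISAT and the rn6 build are named in the submitters' processing notes, with no role or version; the counting tool and annotation are not given in the sources used here. A further FPKM column equals Llgl1/2 library 2 in all 14636 rows and was not used (1 column). No read totals are held, so depth and counting error are unknown.

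Genes at 1 FPKM or more in at least 3 libraries (10789) were tested on log2(FPKM + 1), a scale that understates changes of low genes, with limma 3.58.1 (R 4.3.3, trended and robust variances, all 9 libraries in 1 fit, 6 residual degrees of freedom) and Benjamini-Hochberg adjustment over all of them, with a threshold of 0.05. Folds are ratios of mean FPKM. The code was tested on simulated data. Python 3.11.15 and pandas 2.3.3 made the summaries. Named genes are the 8 steepest calls per direction and comparison, paralogs with their parents, the stalk genes and Rpsa, the 5 highest and 5 lowest in the controls, and the most significant genes of each list; Rpl37a-ps1, RGD1359290, Rps2, Rpl12, Rpl10a, Rpl15 and Rpl6 were added after their values were seen. The members and lists were chosen with earlier results of these data known. Alternatives were median-ratio, FPKM-sum and quantile scaling, a pseudocount of 0.1, filters, an adjusted p of 0.01, the 6 libraries compared, the replicate block and leaving out each library; scaling to the same FPKM sum over all other genes was chosen after seeing the data. Sequences are from RefSeq, GRCr8, matched by gene ID. Some items are not reported here.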

Additional observations from a re-analysis of the deposited data

How the results depend on the processing

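Read depth is unknown, and FPKM are relative levels, so a common shift of all mRNA would not be seen. Copies of ribosomal protein genes may share reads. The median log2 change of these genes kept its direction in every fit. No named gene changed sign in a comparison where it passed the test, as deposited or under the alternative. Genes that did not pass could change sign, as Rps4x did after Yap siRNA, from -0.13 to 0.08 across the scalings. The summed level against the control ran from 0.890 to 0.953 for Llgl1/2 siRNA and from 1.15 to 1.23 for Yap siRNA when a library was left out. Of the single-gene comparisons, 1990 alternatives stayed on the same side of the threshold, 84 lost a call and 32 gained one. The 14 genes lower after Llgl1/2 siRNA became 7 at an adjusted p of 0.01 and 7 to 21 when a library was left out. The 9 genes lower after Yap siRNA became 14 with the same FPKM sum in every library and 17 under quantile normalization. The 8 genes higher after Llgl1/2 than after Yap siRNA became 3 under median-ratio scaling, 5 without the filter, 2 at an adjusted p of 0.01 and 3 to 9 when a library was left out. Fewer samples are fitted in the latter and stricter thresholds call fewer genes; otherwise the cause was not tested. With the replicate number as a block, 23 genes were lower after Llgl1/2 siRNA. The numbers were not taken as pairs in the main fit. Deviations of same-numbered libraries correlated at 0.010 to 0.24, all positive but under 0.1 in some pairs. Those of differently numbered libraries of different groups correlated at -0.18 to 0.069. Whether libraries of the same number share a batch was not tested. Control library 2 correlated better with Llgl1/2 library 1 (0.040) than with library 2 (0.010).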

Other observations

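Proteins that escort newly made ribosomal proteins, the dedicated chaperones and the importins that carry them into the nucleus, counted 0 rises and 4 falls of 12 tested genes after Llgl1/2 siRNA and 0 and 4 after Yap siRNA. Among all tested genes 22.1% rose and 18.1% fell in the first comparison and 20.5% and 27.5% in the second. The medians of the list were -0.15 and -0.11, against 0.03 and -0.06 for all tested genes. The importin Ipo9 was at 45.8, 49.2 and 47.0 FPKM in the controls, 47.0, 46.9 and 47.7 after Llgl1/2 siRNA and 28.6, 26.2 and 31.0 after Yap siRNA. The Yap libraries stood apart, and Ipo9 fell by 0.71 ± 0.08 (limma adjusted p = 5.3e-06). Ipo4 fell by 0.71 ± 0.09 (limma adjusted p = 2.9e-05), and Ipo7 by 0.67 ± 0.07 (limma adjusted p = 6.6e-06) after Yap siRNA and by 0.23 ± 0.07 (limma adjusted p = 0.022) after Llgl1/2 siRNA. Grwd1, the chaperone of Rpl3, fell by 0.40 ± 0.11 after Yap siRNA (limma adjusted p = 0.0068), and Bccip, the chaperone of Rpl23, fell by 0.35 ± 0.08 after Llgl1/2 siRNA (limma adjusted p = 0.0034). Npm1, the abundant nucleolar chaperone, was at 752, 792 and 663 FPKM in the controls, 536, 542 and 537 after Llgl1/2 siRNA and 939, 952 and 722 after Yap siRNA. It fell by 0.45 ± 0.10 after Llgl1/2 siRNA (limma adjusted p = 0.0034) and overlapped the controls after Yap siRNA (limma adjusted p = 0.071).

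LOC367195, a row outside the choice, is annotated as an L7 protein in the file, and the GRCr8 table names it Rpl7-ps3, a pseudogene. The row was at 30.3, 31.2 and 25.1 FPKM in the controls, 25.3, 22.0 and 19.95 after Llgl1/2 siRNA and 3.2, 2.66 and 0.77 after Yap siRNA. It fell by 3.31 ± 0.27 after Yap siRNA (limma adjusted p = 9.3e-06), while Rpl7 itself rose by 0.26 (limma adjusted p = 0.013). The row was named after its values were seen.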
